A study of Mus musculus with 9 samples.

Results

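The 9 genes of the pre-B cell receptor, its signalling chain and V(D)J recombination (Vpreb1, Igll1, Cd79a, Cd79b, Blnk, Cd22, Rag1, Rag2 and Dntt) were followed for DNA methylation in a mouse B cell line treated with a demethylating drug. They were listed by name and not by any measured value, and are 9 of the 49943 genes of the RefSeq gene table used for mm10. For each gene, every CpG from 5 kb outside one gene end to 5 kb outside the other was taken where each of the 9 libraries had at least 1 read. This gave 202 distinct CpGs in the windows of 8 genes, out of 1096949 CpGs of the genome that met the same requirement. The Rag2 window held no CpG that was read in any library, so Rag2 has no value here.

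All libraries came from Abl.1, a clonal line of immortalised B cells with a 129S1/SvImJ x CAST/EiJ F1 background, from a female. The cells were kept until day 2 in medium with the solvent DMSO (2 libraries, with 1% DMSO in the label) or with the drug 5-aza-2'-deoxycytidine, here 5-aza-dC, taken from a stock in DMSO, at 0.2 µM (2 libraries), 2 µM (3 libraries) or 10 µM (2 libraries). 5-aza-dC is a cytidine analogue that is built into DNA during replication and traps the enzymes that methylate it. In every group dead cells were removed by density centrifugation, so the levels are those of cells that were alive at day 2, and all values describe 1 clone. Methylation was read by reduced representation bisulfite sequencing (RRBS), in which fragments cut at CCGG are sequenced after bisulfite has converted unmethylated cytosine, so CpGs far from such sites are seldom read. The labels call the libraries of a group library preparation replicates and do not say whether they came from separate cultures. The p-values below therefore measure only the spread between these libraries, which may be technical.

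The pre-B cell receptor is the checkpoint receptor of early B cells. Vpreb1 and Igll1 form the surrogate light chain that pairs with a new heavy chain, Cd79a and Cd79b carry the signal into the cell, and the adaptor Blnk passes it to the downstream enzymes. Cd22 is a sialic acid binding co-receptor that dampens signalling and is known for mature B cells. Rag1 and Rag2 together form the recombinase that cuts the immunoglobulin loci, and Dntt adds nucleotides at the cut ends. Methylation at CpGs near a gene's start is generally associated with a silent gene, while gene bodies are often methylated in expressed and silent genes alike. RRBS measures no expression.

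Across the series, the libraries held between 8590883 and 16495535 reads at CpGs, and the median CpG of a library had 3 to 5. A level is the share of methylated reads in all reads of a window, given in percent for each library. The median level over the 27411 genes with at least 10 reads in each library was 25.2% in DMSO, 12.6% with 0.2 µM, 21.1% with 2 µM and 27.1% with 10 µM. The lowest of the 3 doses thus had the lowest median. As a check of the cell label, windows of 1 kb either side of the start were read in DMSO. Those of the B lineage markers Ebf1 (31 CpGs) and Vpreb1 (5 CpGs) were at 0.303% and 0.658%. The Vpreb1 CpGs lie 495 to 589 bases into the gene. The start window of the myeloid gene Csf1r was at 52.8% on 2 CpGs and that of the erythroid gene Klf1 at 13.0% on 13 CpGs. The start window of the T cell gene Cd4 was also low, at 0.573% on 22 CpGs.

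By the share of methylated reads in their windows, the measured genes divided into a methylated pair and 6 genes with little methylation. In DMSO, Cd22 was at 83.4% ± 3.73 (SD, n = 2) and Rag1 at 61.5% ± 4.23. Dntt followed at 4.44% ± 4.60 and Blnk at 3.26% ± 2.05. Cd79b, Cd79a, Igll1 and Vpreb1 were all below 1%, between 0.145% and 0.793%. The libraries of Cd22 and Rag1 did not overlap, those of Dntt and Blnk overlapped, and no order held among the last 4 beyond their spread, except that both libraries of Cd79a and of Cd79b lay above both of Vpreb1. Of all genes tested, 85.1% had a lower DMSO level than Cd22 and 67.9% a lower one than Rag1. In all, 6 of the 8 measured genes were under 5% in DMSO, against 27.4% of all genes tested. Blnk and Dntt were not under 5% as unweighted means over CpGs (7.54% and 20% in DMSO), and all CpGs of Igll1 are also counted in Vpreb1.

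**Figure D1:**
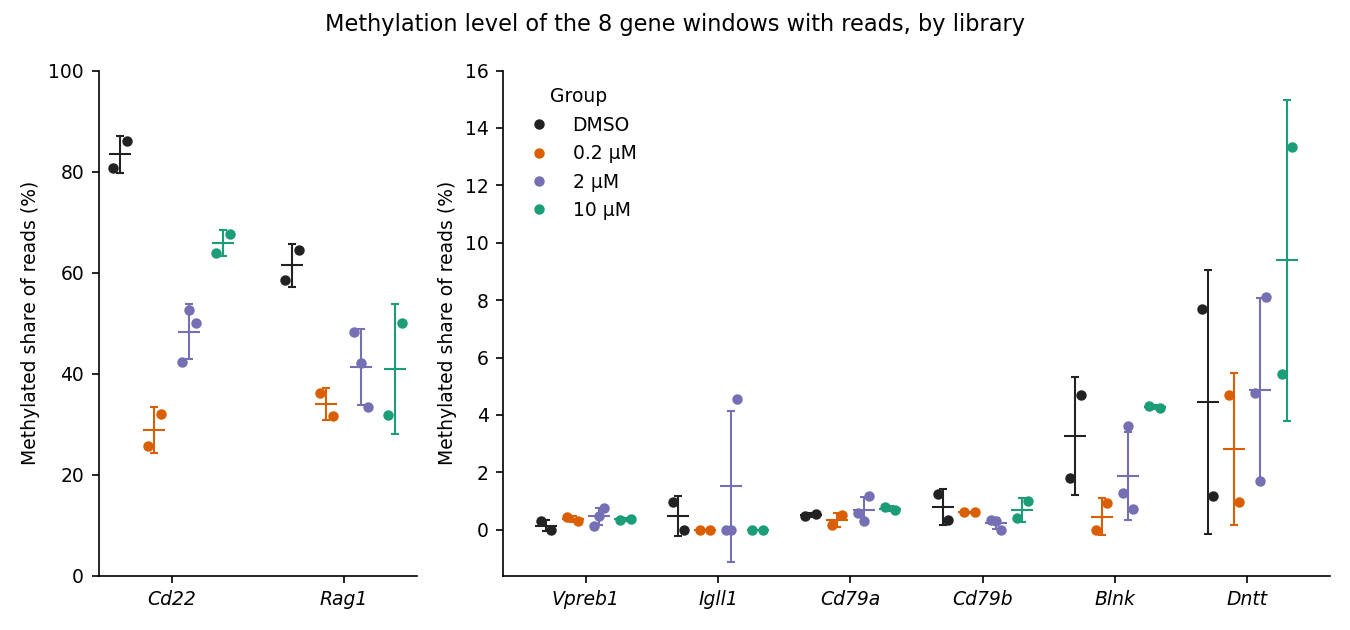
Methylated share of reads in percent (vertical axis) for the 8 gene windows with reads, with each library as a dot, the mean as a horizontal line and the SD as a bar, on separate scales for Cd22 and Rag1 (left) and the other 6 genes (right). Cd22 is lowest at 0.2 µM and climbs back with dose without reaching DMSO, while the genes on the right stay under 15% in each library.

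The 9 libraries were compared window by window with a binomial model of methylated and total reads with limma moderation and Benjamini-Hochberg adjustment over all 27411 genes. The 3 comparisons with DMSO share the same 2 DMSO libraries. At 0.2 µM, 2 of the 8 measured genes, Cd22 and Rag1, were called lower, against 54.2% of all genes tested. At 2 µM, 1 gene, Cd22, was called lower, against 35.5% of all genes. At 10 µM the same 1 gene was called lower, against 8.3% of all genes. No listed gene was called higher than DMSO at any dose, at an unadjusted p under 0.05 or in the alternative tests with limma, beside 0.0766%, 0.27% and 0.587% of all genes called higher. Set against the median log odds change of all genes, 17.1% of genes were called lower and 3.31% higher with 0.2 µM, 22.2% and 5.07% with 2 µM, and 5.78% and 1.07% with 10 µM. The median change of the 8 genes was -1.06 percentage points at 0.2 µM, beside -11.2 points over all genes. Of the 8, 6 were under 5% in DMSO and could not fall by that much, so the small median reflects where they started.

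**Figure D2:**
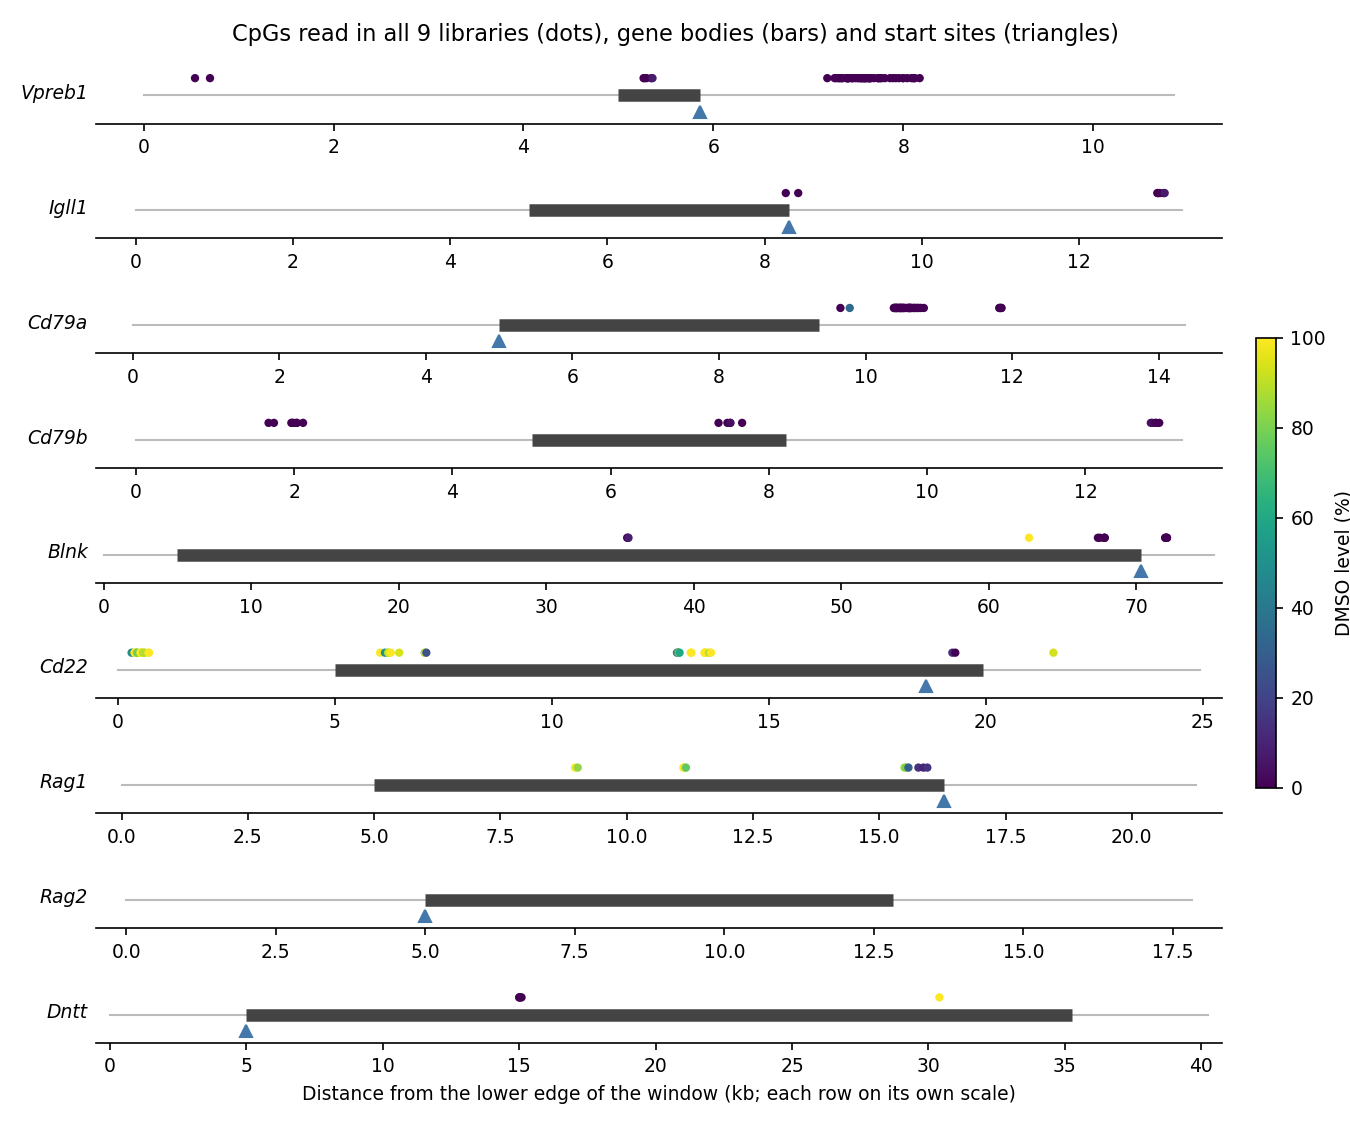
Positions of the CpGs read in all libraries along each gene window (horizontal axis in kb from the lower edge of the window, each gene on its own scale), coloured by the DMSO level in percent, with gene bodies as bars and start sites as triangles. CpGs at 80% or more lie in the windows of Cd22 and Rag1 and at a lone position in Blnk and Dntt, and the Rag2 window is empty.

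The surrogate light chain genes Vpreb1 and Igll1 were nearly free of methylation in all groups. Vpreb1 lies at chr16:16868401-16869255 and Igll1 at chr16:16860671-16863985, both on the minus strand, and their windows overlap. All 7 CpGs of the Igll1 window also belong to the 61 CpGs of the Vpreb1 window. Vpreb1 was at 0.290% and 0% in the DMSO libraries, 0.451% and 0.303% with 0.2 µM, 0.142%, 0.482% and 0.765% with 2 µM, and 0.327% and 0.391% with 10 µM. The libraries at 0.2 and at 10 µM all lay above those of DMSO, by 0.232 points (adjusted p = 0.679) and 0.214 points (adjusted p = 0.824) on average, and those at 2 µM overlapped with every group. Pooled, the DMSO libraries held 3 methylated of 1549 reads, or 0.194% (95% Wilson interval 0.0659% to 0.568%). Of the 61 CpGs, 50 lie inside the neighbour Top3b, a topoisomerase gene, so this window mostly reports that gene. The 5 CpGs inside Vpreb1 held 1 methylated of 112 reads in DMSO, 0 of 80 with 0.2 µM, 2 of 98 with 2 µM and 0 of 92 with 10 µM.

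Igll1 gave the only promoter that was read in all libraries, among the listed genes with an entry in the RefSeq promoter table. Its window was at 0.980% and 0% in DMSO, 0% in both libraries with 0.2 µM and with 10 µM, and 0%, 0% and 4.55% with 2 µM. The value of 4.55% in 2 µM replicate 3 rests on 2 methylated reads, and no comparison passed the test. Of the 7 CpGs of this window, 5 lie inside Vpreb1, and all methylated reads of the window are at those. Its promoter CpGs, 44 bases after and 114 bases before the start site, had 0 methylated of 35 reads in DMSO, 0 of 29 with 0.2 µM, 0 of 31 with 2 µM and 0 of 25 with 10 µM. These counts allow a share of up to 8.57%, 10.3%, 9.68% and 12%. The limits and intervals here cover counting error only. Reads without molecular identifiers are not independent molecules, and CpGs on the same read share it.

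Both Igll1 CpGs sit in a CCGG, as printed here 5′ to 3′ on the gene's strand from the RefSeq promoter table (GRCm38.p6), with CpGs in capitals. They are shown because they are the only promoter CpGs that the reads cover in all libraries, among the listed genes in that table. Cd79b has no promoter there and could not be checked.
Igll1 at -114: cccaaccacaacCGggtagtcccttt
Igll1 at +44: caatccttttgcCGggaga

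The table held promoters for 8 of the 9 genes. Not printed are Dntt and Cd22, and Blnk and Cd79a, which held the most CpGs of the 8. The 250 bases before the start are printed for Igll1 (chr16:16863986-16864235, minus strand), Vpreb1 (chr16:16869256-16869505, minus strand), Rag1 (chr2:101649533-101649782, minus strand) and Rag2 (chr2:101624462-101624711, plus strand), with CpGs in capitals.
Igll1 promoter: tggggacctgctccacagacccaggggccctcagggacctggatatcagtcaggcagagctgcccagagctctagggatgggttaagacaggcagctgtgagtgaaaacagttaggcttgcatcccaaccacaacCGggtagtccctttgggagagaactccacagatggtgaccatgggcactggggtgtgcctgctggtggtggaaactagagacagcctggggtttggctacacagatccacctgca
Vpreb1 promoter: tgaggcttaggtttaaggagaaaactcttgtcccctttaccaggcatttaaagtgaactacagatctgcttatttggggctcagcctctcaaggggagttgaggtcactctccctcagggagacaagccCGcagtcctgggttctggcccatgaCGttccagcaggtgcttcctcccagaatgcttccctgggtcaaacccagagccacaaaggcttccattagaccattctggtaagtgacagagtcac
Rag1 promoter: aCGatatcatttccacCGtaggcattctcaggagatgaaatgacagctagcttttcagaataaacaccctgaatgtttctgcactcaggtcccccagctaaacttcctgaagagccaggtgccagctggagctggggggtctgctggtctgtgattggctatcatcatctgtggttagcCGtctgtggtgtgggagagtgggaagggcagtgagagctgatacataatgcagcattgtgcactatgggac
Rag2 promoter: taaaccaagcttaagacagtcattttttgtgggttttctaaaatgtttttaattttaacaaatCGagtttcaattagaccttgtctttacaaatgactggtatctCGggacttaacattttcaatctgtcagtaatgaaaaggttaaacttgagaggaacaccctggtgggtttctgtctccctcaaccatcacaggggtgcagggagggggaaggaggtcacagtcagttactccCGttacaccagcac

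Between 250 bases before and 50 after the start, the 8 promoters held 2 CpGs in Vpreb1, Igll1 and Dntt, 3 in Rag1 and Rag2, 4 in Cd22, 7 in Blnk and 8 in Cd79a, beside a median of 7 over 32851 promoters. CCGG, searched on both strands, occurred in the promoters of Igll1 (2 matches), Cd79a (1) and Cd22 (1) and in 52.8% of all promoters. The E-box letters CAGGTG, on both strands, occurred in Vpreb1, Igll1, Cd79a, Blnk, Cd22 and Rag1, and in 20.2% of all promoters. The Ikaros letters TGGGAA, on both strands, occurred in Cd22 and Rag1, and in 25.6% of all promoters. These are matches of letters in a fixed window and no measure of binding.

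The signalling pair Cd79a and Cd79b was also low in every library. Cd79a (chr7:24897497-24901858, plus strand) had no measured CpG inside the gene: 33 of its 52 CpGs lie in the neighbour Arhgef1 and 19 between the genes. Its window was at 0.476% and 0.564% in DMSO, 0.168% and 0.510% with 0.2 µM, 0.572%, 0.290% and 1.17% with 2 µM, and 0.790% and 0.671% with 10 µM. The groups overlapped except that both 10 µM libraries lay above those of DMSO and of 0.2 µM, and the difference from DMSO of 0.211 points had an adjusted p of 0.889. The first 2 CpGs past the gene end carried more than the rest of the window, with 6 methylated of 34 reads in DMSO, 1 of 40 with 0.2 µM, 9 of 36 with 2 µM and 2 of 17 with 10 µM. They were singled out after their values were seen and were not tested.

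Cd79b (chr11:106311341-106314562) was at 1.23% and 0.355% in DMSO, 0.623% and 0.602% with 0.2 µM, 0.348%, 0.318% and 0% with 2 µM, and 0.407% and 0.995% with 10 µM. Its 18 CpGs comprise 5 in the gene, 5 in the neighbour Scn4a and 8 outside genes, with 2736 reads in all. The 2 µM libraries were the lowest, all under each other library, and differed from DMSO by -0.571 points on average with an adjusted p of 0.601. The 5 CpGs in the gene held 1 methylated of 131 reads in DMSO, 1 of 142 with 0.2 µM, 0 of 138 with 2 µM and 2 of 60 with 10 µM. No comparison passed the test.

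The adaptor Blnk (chr19:40928927-40994221, minus strand) had 14 CpGs, 9 in the gene and 5 outside it. Its window was at 1.81% and 4.71% in DMSO, 0% and 0.917% with 0.2 µM, 1.27%, 3.61% and 0.730% with 2 µM, and 4.32% and 4.23% with 10 µM. Both 0.2 µM libraries lay under both DMSO libraries, by 2.80 points on average, and the difference did not pass the test (adjusted p = 0.251). Both 10 µM libraries lay above those of 0.2 µM by 3.81 points on average (adjusted p = 0.142). Almost all of the methylation was at a lone CpG 7566 bases into the gene, with 6 methylated of 6 reads in DMSO, 1 of 8 with 0.2 µM, 3 of 8 with 2 µM and 8 of 9 with 10 µM. The other 13 CpGs held 1 methylated of 245 reads in DMSO and 0 of 242 at 0.2 µM. A laxer requirement, at least 1 read in each group in place of each library, gave 34 CpGs and pooled levels of 12.04% in DMSO, 0.952% with 0.2 µM, 6.81% with 2 µM and 13.4% with 10 µM. Blnk's level thus depends on which of its CpGs are counted.

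Cd22, the inhibitory co-receptor, had the highest level in DMSO and the largest fall of the listed genes. It lies at chr7:30865404-30880342 on the minus strand, with 40 CpGs and 2522 reads in its window. The gene holds 25 of these CpGs, with 187 of 375 reads in DMSO and 324 of 673 with 0.2 µM. With 2 µM it held 427 of 964 reads and with 10 µM 238 of 510. The other 15 CpGs lie inside neighbouring genes, so the window values report those genes as well. Its level was 80.8% and 86.0% in the DMSO libraries, 25.6% and 32.1% with 0.2 µM, 42.2%, 52.6% and 50.0% with 2 µM, and 64.0% and 67.6% with 10 µM. No library of a group overlapped with another group, and the order was 0.2 µM, 2 µM, 10 µM and DMSO from low to high. Pooled, 310 of 375 reads were methylated in DMSO, or 82.7% (95% Wilson interval 78.5% to 86.2%), and 196 of 673 at 0.2 µM, or 29.1% (25.8% to 32.7%). At 2 µM the count was 470 of 964, or 48.8% (45.6% to 51.9%), and at 10 µM 335 of 510, or 65.7% (61.5% to 69.7%).

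At 0.2 µM Cd22 fell by 54.5 points against DMSO (log odds change -2.47 ± 0.267 SE, adjusted p = 2.77e-05), and at 2 µM it fell by 35.1 points (-1.64 ± 0.245, adjusted p = 0.000257). Both falls also exceeded the median log odds change of all genes, with adjusted p = 0.00289 and 0.00352. That median covers genes of all levels, also those with little methylation. Among the 10481 genes at 50% or more in DMSO, the share of its level that Cd22 kept lay within the interquartile range at both doses. At 10 µM it fell by 17.6 points (-0.93 ± 0.267, adjusted p = 0.0471), a call close to the threshold. The 10 µM call was lost in 18 of 22 alternatives, among them each single library left out in turn (adjusted p = 0.0513 to 0.198) and the CpGs of the gene alone, where the change was -9.91 points (adjusted p = 0.528).

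Cd22 was also higher at the larger doses than at 0.2 µM. It rose by 37.0 points from 0.2 to 10 µM (adjusted p = 0.000587), where 49.6% of all genes were called higher. From 0.2 to 2 µM it rose by 19.4 points (adjusted p = 0.0246), where 14.4% of all genes were called higher. From 2 to 10 µM it rose by 17.5 points (adjusted p = 0.0450), where 9.25% were. Cd22 was the only listed gene called in each of these, and no listed gene was called lower, also at an unadjusted p under 0.05 (background 0.478% from 0.2 to 2 µM, 0.0073% from 2 to 10 µM and 0.0365% from 0.2 to 10 µM). The call for a rise from 2 to 10 µM was lost when any single library was left out, and the change stayed at 14.5 to 19.7 points. The call from 0.2 to 2 µM was lost without either 0.2 µM library or without 2 µM replicate 2 or 3. Its change stayed at 16.2 to 22.6 points with each library left out. Without a 0.2 µM library that group has 1 library, and the calls of all other genes were lost too. The same held from 2 to 10 µM without a 10 µM library. Those losses are therefore not particular to Cd22.

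Within the Cd22 window the same order held in the gene and inside the neighbour Ffar1, and the CpGs near the start stood apart. Counted from the promoter table's start site at position 30879028, 23 CpGs of the gene lie more than 1 kb away, and they were at 86.0% in DMSO, 34.0% with 0.2 µM, 55.5% with 2 µM and 74.3% with 10 µM (pooled reads). The 14 CpGs inside the neighbour Ffar1, a fatty acid receptor gene, were at 89.0%, 26.6%, 45.6% and 65.5% from DMSO to 10 µM. The lone CpG inside D7Ertd128e, on the other side, did not have this order, with 93.3%, 38.5%, 46.3% and 43.5% on 15, 26, 41 and 23 reads. The 2 CpGs within 1 kb of the start, at -606 and -674 bases and still inside the gene record, held 1 methylated of 23 reads in DMSO, 1 of 33 with 0.2 µM, 2 of 25 with 2 µM and 0 of 20 with 10 µM. Few reads cover them, and the 20 reads at 10 µM allow a share of up to 15.0%.

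Of the 40 CpGs of the Cd22 window, 30 were at 80% or more in DMSO and 19 at 100%. At 0.2 µM 38 CpGs were below their DMSO level, at 2 µM 34 and at 10 µM 28. The lowest level was the one at 0.2 µM for 31 CpGs, and the full order of the window was seen at 17. The 1 kb tile with the most reads, chr7:30860001-30861000 in Ffar1, was at 86.8% ± 2.32 in DMSO, 24.9% ± 1.41 with 0.2 µM, 43.5% ± 9.89 with 2 µM and 61.1% ± 1.11 with 10 µM. The next, chr7:30873001-30874000 in Cd22, was at 86.6% ± 14.1, 28.9% ± 16.1, 49.8% ± 20.4 and 69.8% ± 6.14. The third, chr7:30866001-30867000 in Cd22, was at 88.3% ± 9.13, 35.2% ± 0.077, 49.5% ± 4.71 and 74.5% ± 9.55. The 3 tiles share the order and differ most at 10 µM.

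**Figure D3:**
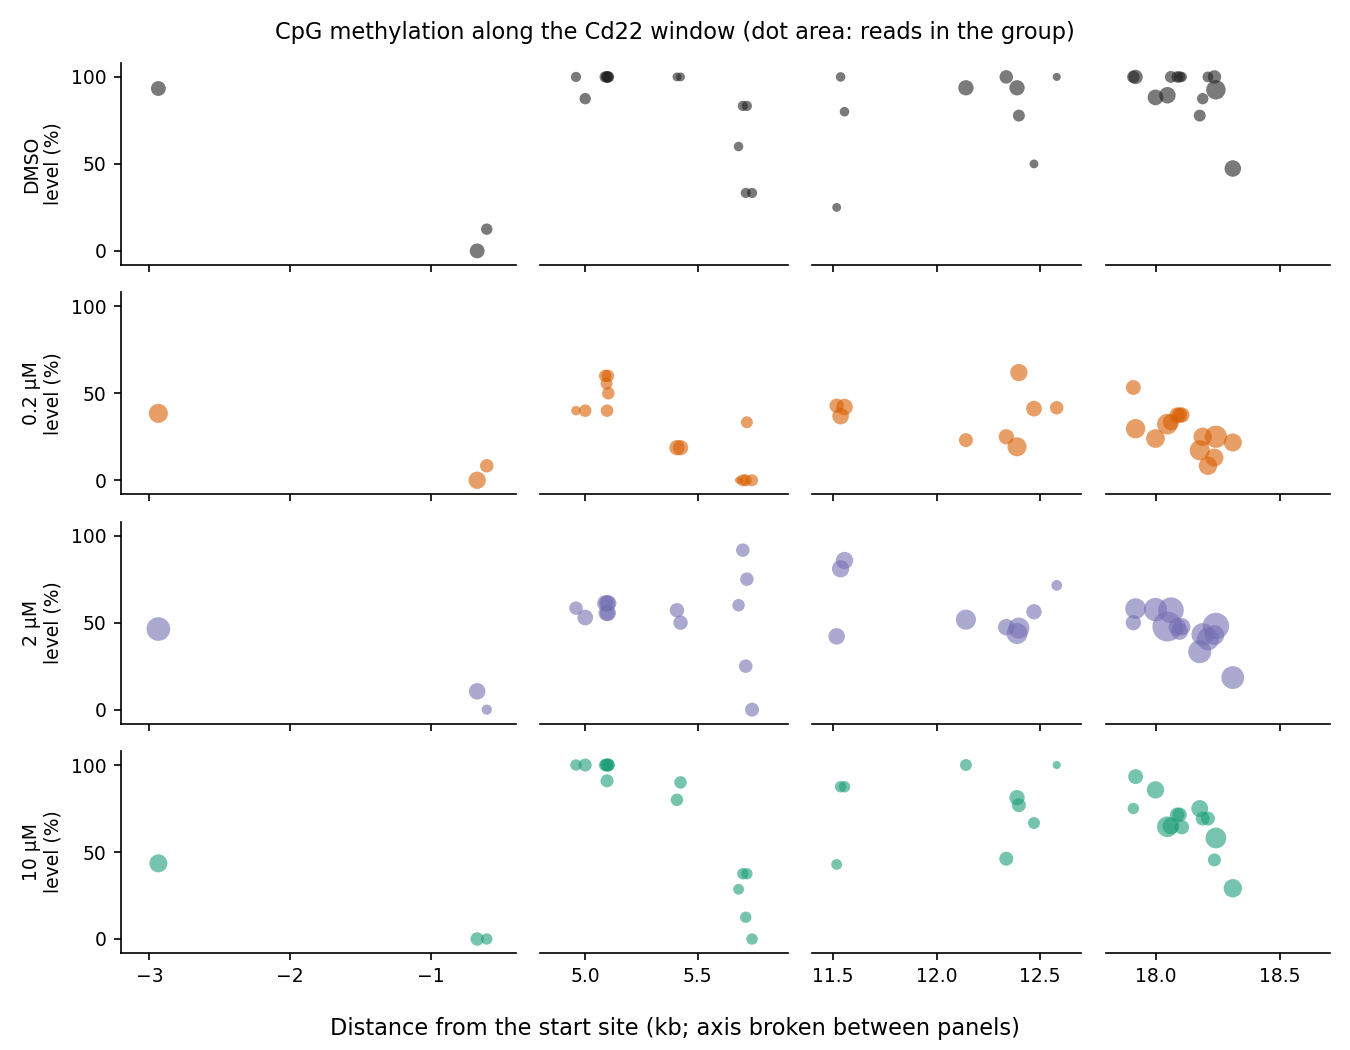
Level of each CpG of the Cd22 window in percent (vertical axis) against distance from the start site in kb (horizontal axis, broken between panels), with a row for each group and dot area showing reads. CpGs 5 to 18 kb from the start are mostly at 80% or more in DMSO and spread below that at 0.2 µM, and the 2 CpGs just before the start are low in all rows.

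The recombinase gene Rag1 (chr2:101638252-101649532, minus strand) was the other methylated member, and its 12 CpGs all lie in the gene. Its level was 58.5% and 64.4% in the DMSO libraries, 36.2% and 31.7% with 0.2 µM, 48.2%, 42.2% and 33.3% with 2 µM, and 31.7% and 50.0% with 10 µM. All treated libraries lay below both DMSO libraries, and the 3 doses overlapped. Rag1 fell by 27.5 points at 0.2 µM (log odds change -1.11 ± 0.345 SE, adjusted p = 0.0148). Set against the median log odds change of all genes it did not pass the test (-0.21, adjusted p = 0.698). The call was lost without 0.2 µM replicate 2 (adjusted p = 0.124) or DMSO replicate 2 (adjusted p = 0.0724).

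At the higher doses the Rag1 differences from DMSO were -20.2 points at 2 µM (adjusted p = 0.0617) and -20.6 points at 10 µM (adjusted p = 0.160), neither past the threshold. Between 2 and 10 µM the log odds differed by -0.01 ± 0.317, a range too wide to show that the doses act alike. Rag1 had 45 to 101 reads per library. Unlike Cd22, Rag1 showed no call for a rise between doses (adjusted p = 0.520 from 0.2 to 2 µM and 0.530 from 0.2 to 10 µM). The difference between the 2 genes was not tested.

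Rag1's methylation was uneven along the gene. Within 1 kb of the start its 6 CpGs were at 45.8% and 48.1% in DMSO, 3.03% and 10.9% with 0.2 µM, 21.8% to 40.9% with 2 µM, and 15.4% and 44.4% with 10 µM. Of the 3 listed genes with a testable window of 1 kb either side of a start or gene end (Vpreb1, Cd79b and Rag1), 1 was called lower at 0.2 µM, against 23.1% of all 18635 such windows. Rag1's start window fell by 40.0 points (adjusted p = 0.0195), a call lost without either 0.2 µM or either DMSO library. Its change stayed between -44.0 and -36.1 points with each library left out. Without DMSO replicate 1, which leaves that group 1 library, the calls of all other windows were lost too. At 2 and 10 µM none of the 3 was called lower, where 16.9% and 0.902% of all windows were called lower, and unadjusted p was above 0.05 for each.

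**Figure D4:**
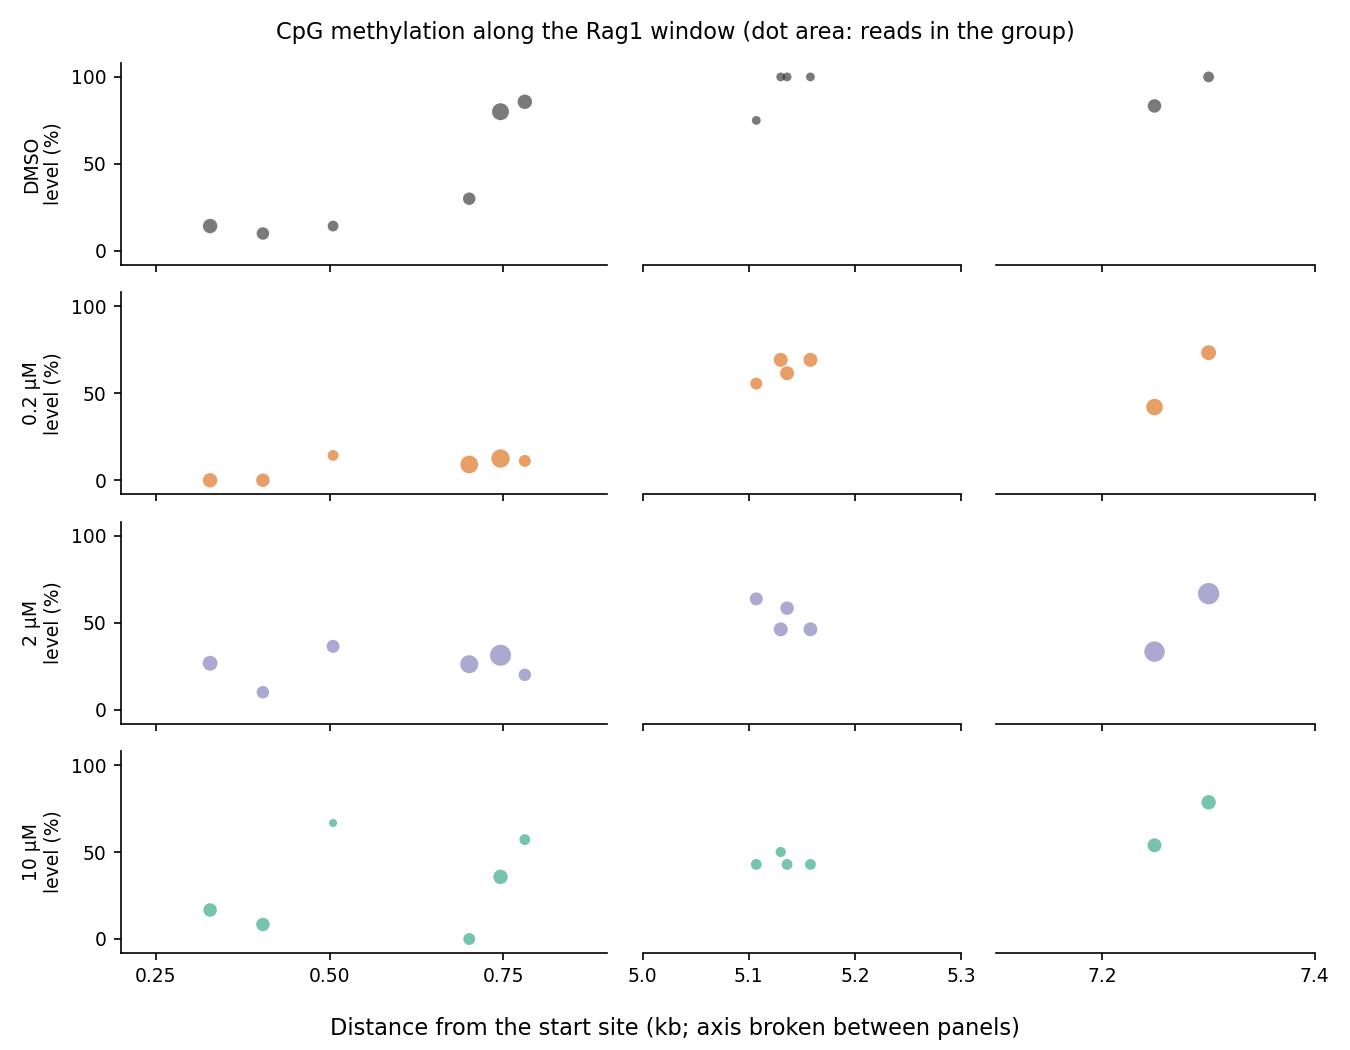
Level of each CpG of the Rag1 window in percent (vertical axis) against distance from the start site in kb (horizontal axis, broken between panels), with a row for each group and dot area showing reads. The 3 CpGs near 0.75 kb stand at 30% to 85.7% in DMSO and at 9.09% to 12.5% at 0.2 µM, while those beyond 5 kb stay above 40% at 0.2 µM.

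The 3 Rag1 CpGs between 701 and 781 bases after the start carried most of the level near it, with 31 methylated of 44 reads in DMSO, 6 of 55 with 0.2 µM, 18 of 65 with 2 µM and 9 of 30 with 10 µM. Nearer the start, the 3 CpGs at 328 to 505 bases held 4 of 31 reads in DMSO, 1 of 33 with 0.2 µM, 9 of 36 with 2 µM and 5 of 27 with 10 µM. Beyond 1 kb, the other 6 CpGs were at 91.4% in DMSO, 61.0% with 0.2 µM, 51.8% with 2 µM and 55.6% with 10 µM (pooled reads). The pooled level at 0.2 µM was therefore the lowest of the 4 groups near the start and the second highest beyond 1 kb, a contrast that was not tested.

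In the Rag1 tiles with the most reads the libraries of a group often lay far apart. At chr2:101648001-101649000 the mean level was 77.3% ± 19.3 in DMSO, 10.3% ± 8.96 with 0.2 µM, 32.5% ± 18.5 with 2 µM and 31.0% ± 10.6 with 10 µM. Deeper in the gene, chr2:101642001-101643000 was at 87.8% ± 6.35, 52.7% ± 15.5, 50.6% ± 3.63 and 69.4% ± 15.0. The tile chr2:101644001-101645000 was at 95.8% ± 5.89, 64.6% ± 20.6, 53.1% ± 8.40 and 48.6% ± 12.1. Of the 12 CpGs, 11 were below DMSO with 0.2 µM, 9 with 2 µM and 10 with 10 µM, and 4 had their lowest level with 0.2 µM.

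Dntt, the terminal transferase gene (chr19:41029275-41059525, plus strand), had 5 CpGs, all in the gene. Its level was 7.69% and 1.19% in DMSO, 4.69% and 0.952% with 0.2 µM, 4.76%, 1.69% and 8.11% with 2 µM, and 5.43% and 13.3% with 10 µM. The groups overlapped except that both 10 µM libraries lay above those of 0.2 µM, by 6.56 points on average (adjusted p = 0.185). No comparison with DMSO passed the test (adjusted p = 0.629 at 0.2 µM and 0.594 at 10 µM). As in Blnk, a lone CpG carried the methylation, 25402 bases into the gene, with 8 methylated of 8 reads in DMSO, 3 of 19 with 0.2 µM, 5 of 9 with 2 µM and 11 of 11 with 10 µM. The other 4 CpGs held 0 of 167 reads in DMSO and 1 of 150 at 0.2 µM. The 7.69% and 1.19% of the DMSO libraries come from 7 and 1 methylated reads, all at this CpG. With at least 1 read in each group in place of each library, Dntt had 8 CpGs and pooled levels of 7.89% in DMSO, 2.56% with 0.2 µM, 7.14% with 2 µM and 11.0% with 10 µM.

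Seen CpG by CpG, the 202 positions were mostly empty or full. In DMSO 138 had no methylated read, 14 were above 0% and under 20%, 11 were from 20% to under 80%, and 39 were at 80% or more. Of those 39, 30 were in Cd22, 7 in Rag1 and 1 each in Blnk and Dntt. Their mean level was 95.4% in DMSO, 35.0% with 0.2 µM, 53.5% with 2 µM and 73.4% with 10 µM. All 39 were below their DMSO level with 0.2 µM, 37 with 2 µM and 29 with 10 µM. The classes were formed on the DMSO level, so the distance from DMSO is a description and was not tested. The 138 CpGs without methylated reads in DMSO had means of 0.371%, 0.684% and 0.578% at the 3 doses. The 1 kb tiles with the most reads in the other 6 genes had mean levels of 0% to 4.06% in all groups, apart from the Dntt tile that holds only the methylated CpG.

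Relative to genes with much methylation, Cd22 lay within the interquartile range at each dose. It kept 34.6% of its DMSO level with 0.2 µM, 57.9% with 2 µM and 78.9% with 10 µM. The 10481 genes at 50% or more in DMSO kept medians of 41.3%, 58.5% and 78.7%, with interquartile ranges of 32.1% to 54.0%, 52.1% to 64.6% and 71.0% to 86.5%. By its group means, Rag1 kept 55.3%, 67.1% and 66.5%, above those ranges at 0.2 and 2 µM and below at 10 µM. Its libraries were spread, from 33.3% to 48.2% methylated at 2 µM and from 31.7% to 50.0% at 10 µM, so its place is uncertain. This is a description of where the genes lie and no test against the others.

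**Figure D5:**
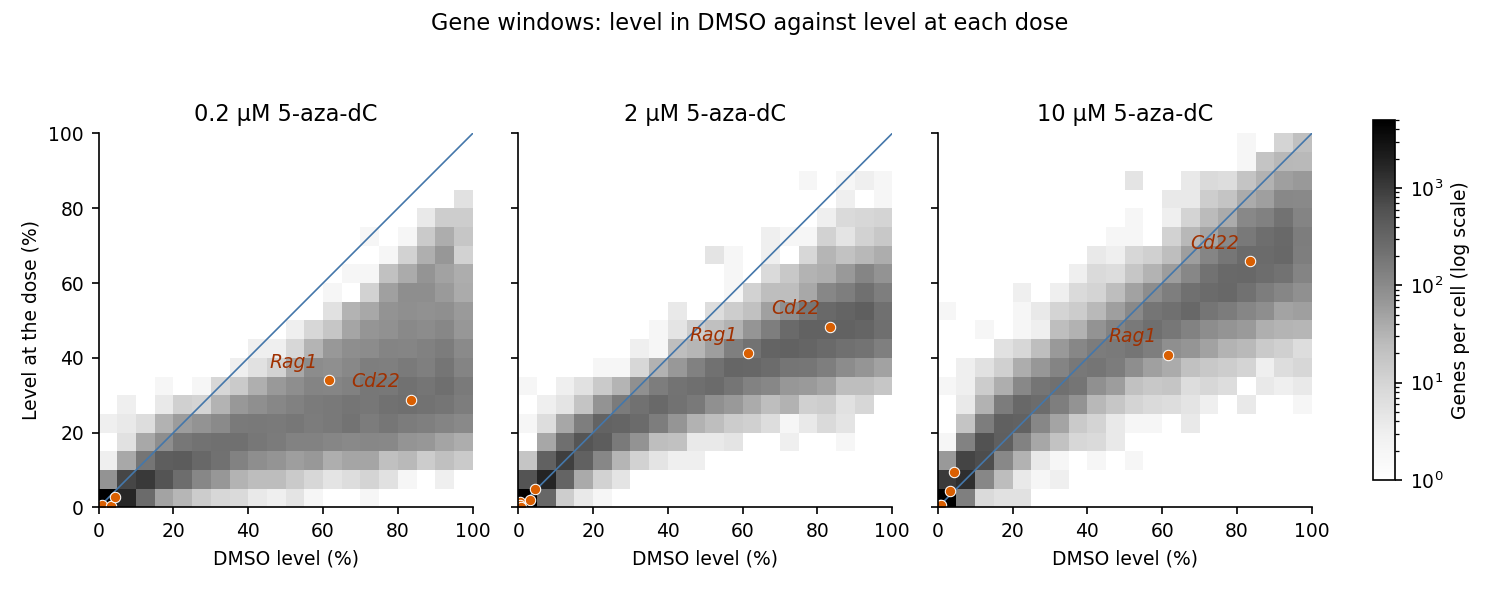
Level at each dose (vertical axis, percent) against the level in DMSO (horizontal axis, percent) for all genes tested, with grey cells showing the number of genes on a log scale, the listed genes as dots and equal levels as a line. Cd22 sits within the dense band at each dose, and Rag1 lies above the middle of the band at 0.2 µM and below it at 10 µM.

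The genes whose levels over the 9 libraries were most like each listed gene were found by the root mean square difference, among genes with at least 5 CpGs whose windows do not touch. Cd22 was nearest to Pdzd3, at 2.78 points, with group means of 83.2%, 25.3%, 48.7% and 66.5% from DMSO to 10 µM. Rag1 was nearest to AI115009, at 4.73 points, with 60.3%, 33.6%, 39.5% and 37.3%. Dntt was nearest to Gm35624 at 1.92 points, Blnk to Cops8 at 0.738 and Igll1 to Cd93 at 0.615. Vpreb1 (Asf1a, 0.111), Cd79a (Gm26797, 0.144) and Cd79b (Tomm6, 0.214) had 3111, 3439 and 3252 genes within 1 point, so many other genes with little methylation share their pattern. No gene lay within 1 point of Cd22, Rag1 or Dntt.

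The other gene lists had median DMSO levels below the 25.2% of all genes tested, and across these lists genes ran from nearly unmethylated to fully methylated. Of 26 pre-B and B cell receptor signalling genes, 24 were tested, with a median DMSO level of 19.8%, and 15 fell with 0.2 µM, 7 with 2 µM and 1, Blk, with 10 µM, where 54.2%, 35.5% and 8.3% of all genes were called lower. The list's median change at 0.2 µM was -7.85 points, beside -11.2 over all genes. The largest falls were in the kinase gene Blk, from 94.5% ± 1.71 to 25.3% ± 1.45 (adjusted p = 7.0e-05), and the phosphatase gene Ptprc, from 100% ± 0 to 40.1% ± 23.5 (adjusted p = 0.00144). Ptprc rests on 3 CpGs. The smallest changes were in the kinase gene Lyn (0.634% in DMSO and 0.285% at 0.2 µM) and in Malt1 (0.238% and 0.561%), neither past the test.

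Of the 13 genes listed under V(D)J joining, not all of which join ends themselves, all were tested. Their median DMSO level was 5.02% and their median change at 0.2 µM was -0.867 points. Of the 13, 6 were under 5% in DMSO and had little room to fall. Those that fell with 0.2 µM were 4, Poll, Xrcc5, Nhej1 and Trp53bp1, against 54.2% of all genes, and with 2 µM 1, Xrcc5, against 35.5%. With 10 µM none was called, with 0 lower and 1, Poll, higher at an unadjusted p under 0.05. The polymerase gene Poll went from 44.3% ± 0.431 to 16.9% ± 1.77 (adjusted p = 0.000401), and the Ku subunit gene Xrcc5 from 35.5% ± 6.33 to 22.8% ± 3.73 (adjusted p = 0.0489). Hmgb2 (0.519% and 0.414%) and the checkpoint kinase gene Atm (1.30% and 1.23%) had the smallest changes. No gene of this list was at 50% or more in DMSO.

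Of the 5 genes of interleukin-7 receptor signalling, which drives early B cell growth, 4 were tested, with a median DMSO level of 12.4%, and 2, Jak3 and Stat5a, fell at 0.2 µM, against 54.2% of all genes. Jak3 went from 29.6% ± 2.12 to 18.6% ± 2.63 (adjusted p = 0.0109) and Stat5a from 18.4% ± 5.20 to 10.9% ± 0.585 (adjusted p = 0.0490). Stat5b (6.42% and 5.31%) and Jak1 (4.23% and 2.89%) had the smallest changes. No gene of the list was called lower or higher at 2 or 10 µM, with 0 lower at an unadjusted p under 0.05. At 10 µM 2 genes, Stat5a and Stat5b, were higher at an unadjusted p under 0.05, Stat5a by 11.6 points (adjusted p = 0.0509). The T cell receptor counterparts, 10 genes with 8 tested, had a median DMSO level of 21.9%, and 5 fell at 0.2 µM, against 54.2% of all genes: Lcp2, Lat, Zap70, Cd247 and Lck. The adaptor Lcp2, the T cell counterpart of Blnk, went from 96.8% ± 4.56 to 22.2% ± 7.59 (adjusted p = 0.000195), and Lat from 54.2% ± 9.28 to 22.5% ± 8.74 (adjusted p = 0.00198). Cd3g (3.32% and 3.40%) and Ptcra (5.83% and 3.46%) had the smallest changes. At 2 µM 2 of these, Lcp2 and Zap70, were called lower, against 35.5% of all genes, and none at 10 µM, with 0 at an unadjusted p under 0.05.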

How the data were processed

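Abl.1 cells grown with DMSO or 0.2, 2 or 10 µM 5-aza-dC were profiled in 9 RRBS libraries, grouped by the labels (2, 2, 3 and 2 libraries). Per the labels' protocols, each library was made from 50 ng of DNA with 11 PCR cycles. Positions are on mm10, per the submitters' processing notes, and the aligner and methylation caller were not given in the sources used here. The deposited files have no header and list, for each CpG, methylated and total read counts as text beside a score from the authors that equals the methylated share times 1000, rounded down, on all lines. Each library held 1531208 to 2053530 CpG lines, and 18 to 68 duplicated and 1 or 2 odd-width lines per library were left out. All 178403 positions in the RefSeq promoter table (GRCm38.p6) lay on a CG.

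CpGs with at least 1 read in each library were summed over gene windows (RefSeq genes with 5 kb flanks) and over 1 kb either side of promoter-table starts (for Cd79b, either gene end). Windows needed 10 reads per library. Levels, their changes in percentage points and SD were computed from library levels, and the pooled levels from summed reads. The test was a binomial model in R 4.3.3, with reads scaled to an effective size by their correlation within libraries (0.0228 to 0.00196 over 5 coverage classes), and limma 3.58.1 moderation of the dispersion over all groups. P-values were two-sided and adjusted by Benjamini-Hochberg over 27411 genes or 18635 start windows, with a threshold of 0.05. In simulated data with 200 of 27411 genes changed by 1.5 log odds, 91, 109 and 92 were called in the comparisons of 0.2, 2 and 10 µM with DMSO, with 0 unchanged genes called. The changed genes were drawn only from windows of intermediate level, so these counts do not apply to listed genes with little methylation. Reads were simulated with the read correlation that the model assumes and with few genes changed, unlike the real data. The 0 therefore holds for that setting only. The variance between replicates was 2.49 to 3.33 times binomial.

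The listed genes, the other gene lists and the tests were chosen with earlier results of these data known. All listed genes are named. A further B lineage marker is not reported here. Of each other list the 2 genes with the largest fall and the 2 with the smallest change at 0.2 µM are named, of each listed gene up to 3 tiles of 1 kb with the most reads were taken, of which those of Cd22 and Rag1 are printed, and the gene nearest in level over the 9 libraries; other genes are named where a count of 5 or fewer is given, after their values were seen. Alternatives changed the flank, the read minimum, the weighting, the test, the reference of the change, the block and the libraries. Tables were made with Python 3.11.15, numpy 2.4.6, pandas 2.3.3 and scipy 1.17.1.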

Additional observations from a re-analysis of the deposited data

How the results depend on the processing

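The fall of Cd22 at 0.2 µM held in all 22 alternatives, and its fall at 2 µM in 21 of 22. The number of listed genes called lower at 0.2 µM, 2 in the report, was 1 with 5 or 10 reads per CpG, with 50 reads per window and against the median log odds change, 4 with the unweighted mean over CpGs (Blnk, Cd22, Dntt and Rag1), and 1 to 2 with a library left out. With 5 or 10 reads per CpG or 50 reads per window, 7, 6 and 5 listed genes could be tested. Rag1 was not among them, so its call was not tested there. At 2 µM, 1 became 0 with 10 reads per CpG, 2 without scaling of reads or with limma on pooled levels, and 4 with the unweighted mean. At 10 µM, 1 became 0 with no flank, a 1 kb or 10 kb flank, 5 or 10 reads per CpG, limma on pooled levels, the median log odds change, the replicate block, or without CpGs in or near other genes (an alternative chosen after seeing the data), and 0 when any library was left out. From 0.2 to 2 µM, 1 became 0 with no or a 1 kb flank, 5 or 10 reads per CpG, the median change and the replicate block, 2 with a 10 kb flank or the unweighted mean, and 0 to 1 with a library left out. From 2 to 10 µM, 1 became 0 with the same 6 settings and without CpGs of other genes, 3 with the unweighted mean, and 0 when any library was left out. In both of these comparisons no gene at all was called with 5 or 10 reads per CpG or with the replicate block. From 0.2 to 10 µM, 1 became 0 with 5 or 10 reads per CpG and the median change, 2 with a 10 kb flank or limma on pooled levels, and 3 with the unweighted mean. With 10 reads per CpG no gene at all was called there either. For start windows at 0.2 µM, 1 became 0 with the median change, the replicate block and the unweighted mean. No listed start window could be tested with 10 reads per CpG, 50 reads per window or 500 bp either side. With 5 reads per CpG 2 could be tested, and that of Rag1 could not.

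The median of the genes' mean DMSO levels, the measure used for the other gene lists, was 2.02% for the listed genes. Here the median over the listed genes was instead taken in each DMSO library and averaged over both, which gave 1.20%. This value became 5.46% with no or a 1 kb flank, 5.71% with 10 kb, 0.0814% with 5 and 0.134% with 10 reads per CpG. It was 4.46% with the unweighted mean and 3.85% without CpGs of other genes. The CpGs and genes that remain differ between these settings. Dntt at 2 µM went from 0.414 to -7.11 points with the unweighted mean (adjusted p = 0.00884), and the cause was not tested. Over all genes, calls of a lower level went from 14845 to between 820 (10 reads per CpG) and 22856 (unweighted mean) at 0.2 µM, from 9734 to between 245 and 19948 at 2 µM, and from 2276 to between 5 and 4614 at 10 µM, in the same 2 settings. Replicate numbers did not pair the libraries: differences between replicates 1 and 2 correlated at -0.0150 to 0.0164 across groups. With the replicate block, which leaves out 2 µM replicate 3, 922 genes were called lower at 10 µM, and the changes of Cd22 and Rag1 at 0.2 µM kept their calls. Where a left-out library leaves a group with 1, that library is assumed to vary like the others. Depth limits Rag1, Igll1 and Dntt most, with 32 to 105 reads per library.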
